A study of Danio rerio with 2 samples.

Results

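The genes described here encode collagens, laminins, nidogens, fibronectins, thrombospondins and the integrin receptors that bind them. They were found by matching the gene names on a zebrafish expression array to the name stems of these families, with the stems for fibrillins and lysyl hydroxylases also searched. The stems matched 18 of 21495 gene probes. Of these, 17 probes for 14 genes (of 17983 genes or transcripts on the array) belong to the families, and all 17 passed the filters on signal and on outlying spots. The remaining match, named itgb4bp4 on the array, is eif6 by its accession, a factor in assembly of the large ribosomal subunit, and was counted apart. No probe carried a fibrillin name. Updating old clone names through a reference table brought in 16 more probes for these families, which made 33 probes for 27 genes, and these are marked as added where they are described. All 33 were tested.

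The study compared gnl2 mutant with wild-type zebrafish embryos. Mutants were homozygous for the bw41c allele of gnl2, which encodes a nucleolar GTPase needed to make the large ribosomal subunit, and came from crosses of heterozygous carriers. Wild types were of the TL strain, and the labels do not call them siblings of the mutants. RNA was taken from pools of 40 whole embryos at 22 hours post-fertilization (hpf). Part of the embryos collected was used to genotype them. Mutant and wild-type RNA, labelled with different dyes, were hybridised together on 2 Agilent arrays. Mutant RNA carried Cy5 (read in red) on array 1 and Cy3 (read in green) on array 2. The series describes biological replicates, yet the titles of the arrays carry an identical final number. Shared extracts are therefore possible, and p-values would then measure technical spread alone. Dye orientation, array and replicate cannot be told apart.

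Collagens are triple helices of alpha chains. Fibril-forming types give connective tissue its strength, while smaller types sit on fibrils or in basement membranes. Laminins are trimers of an alpha, a beta and a gamma chain and form the first sheet of a basement membrane, to which nidogen ties the collagen network. Fibronectin is pulled into fibrils by integrins at the cell surface. In zebrafish embryos of this age, laminin surrounds the notochord, fibronectin lines the borders between somites, and the notochord sheath is rich in collagen.

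The median signal was 482 (red) and 243 (green) for array 1, and 305 (red) and 204 (green) for array 2. Between 92.7% and 96.4% of gene probes were well above background in any channel. The filters left 19284 probes for 16295 genes or transcripts, which limma tested on the mean of the 2 log2 ratios, always mutant over wild type. None passed an adjusted p of 0.05 (0% of probes), and the smallest adjusted p over all probes was 0.498. At an unadjusted p under 0.05, 2.03% of probes were higher in mutants (392) and 1.24% were lower (240). The ratios of the 2 arrays were weakly opposed across probes (Pearson's r = -0.149, Spearman's rho = -0.197 over 19284 probes, which share both hybridisations). The probe for gnl2 had signals of 3017 and 402.2 in mutant RNA on arrays 1 and 2, against 5976 and 1945 in wild-type RNA, a log2 ratio of -1.63 ± 0.91 (SD, n = 2) with an adjusted p of 1.00 in limma. The sources used here do not place the probe on either side of the bw41c lesion, and the labels are not checked by its value. These are whole embryos, so fewer cells of a type and less RNA per cell cannot be told apart.

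No matrix gene passed the adjusted test, and neither did any other probe on the array. The 17 probes had mean log2 ratios between -0.32 and 0.26, with a median of 0.03, beside a median of 0.0019 over all tested probes. The median of the same 17 probes was 0.11 on array 1 and -0.03 on array 2. Of the 17, 4 were higher in mutants on both arrays, 4 were lower on both, and 9 pointed in opposite directions on the 2 arrays. Over all tested probes, 21.4% were higher on both arrays and 20.0% were lower on both. None of the 17 was at least 2-fold higher or lower on both arrays, a size reached by 0.124% (higher) and 0.00519% (lower) of all probes. At an unadjusted p under 0.05 in limma, 0 were higher and 2 were lower, the fibronectin receptor gene itga5 and the laminin gene lamb4. Every member had an adjusted p of 1.00. The median size of the mean ratio, regardless of sign, was 0.157 among the 17 and 0.0562 over all probes. The members and all probes were not matched for signal, and this larger size among the members was not tested.

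**Figure D1:**
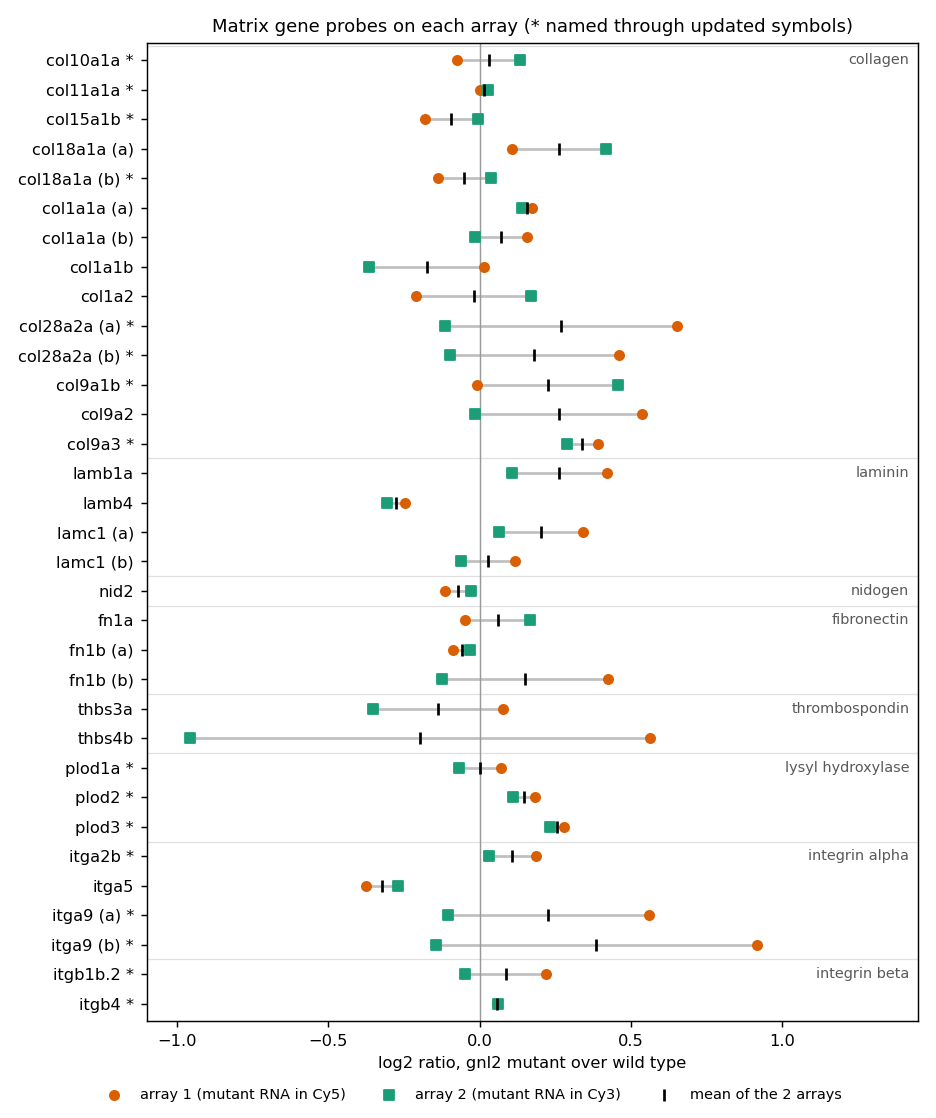
Log2 ratio of gnl2 mutant over wild type (x axis) for the 33 matrix gene probes (y axis), by gene family. Circles are array 1, squares array 2, bars the mean of the 2 arrays, and the letters a and b separate probes of a gene. Stars mark the probes added through updated names. The ratios of thbs4b lie farthest apart, at 0.56 and -0.96, while those of itga5 and lamb4 lie close together below 0 and those of col9a3 and plod3 close together above 0.

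Type I collagen, the main fibril-forming collagen of skin and bone, was measured through all 3 of its zebrafish chain genes. For col1a1a the signals of probe a were 3867 and 2563 in mutant RNA on arrays 1 and 2, against 3432 and 2324 in wild-type RNA. Mutant signal was thus the higher on either array, with log2 ratios of 0.17 and 0.14 and a mean of 0.16 ± 0.02 (SD, n = 2). The unadjusted p was 0.142 in limma. Probe b of col1a1a read 1458 and 854.6 in mutant RNA against 1308 and 862.6 in wild-type RNA, so it was higher on array 1 and nearly level on array 2, with a mean log2 ratio of 0.07 ± 0.12 (SD, n = 2). For its paralog col1a1b, called col1a3 on the array, the signals were 2325 and 982.8 in mutant RNA against 2301 and 1266 in wild-type RNA. They were level on array 1 and lower in mutants on array 2, for a mean of -0.18 ± 0.27 (SD, n = 2). The partner chain gene col1a2 was lower in mutants on array 1 (444.3 against 513.8 in wild types) and higher on array 2 (346.9 against 308 in wild types). Its mean log2 ratio was -0.02 ± 0.27 (SD, n = 2). At these named probes, the 3 chain genes of type I collagen thus showed no shared direction. A further probe, tied to col1a2 only by its array description, was higher in mutants on both arrays, at 0.28 and 0.11.

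Type IX collagen decorates cartilage and notochord-sheath fibrils, and its trimer is built from the products of separate genes for its alpha 1, alpha 2 and alpha 3 chains. The rule found col9a2, and updated names added col9a1b and col9a3. Signals of col9a2 were 8453 and 4767 in mutant RNA, against 5826 and 4812 in wild-type RNA. The mutant signal was higher on array 1 and level on array 2, and the log2 ratios were 0.54 and -0.01 with a mean of 0.26 ± 0.39 (SD, n = 2). The opposite array carried the difference for col9a1b, whose signals were 6576 and 4238 in mutant RNA against 6609 and 3084 in wild-type RNA. Its ratios were -0.01 and 0.46, with a mean of 0.23 ± 0.33 (SD, n = 2). Only col9a3 among the 3 genes was higher in mutants on both arrays, with signals of 452.2 and 255.4 in mutant RNA and 344.4 and 209.3 in wild-type RNA. Its mean log2 ratio was 0.34 ± 0.07 (SD, n = 2), a ratio of 1.27-fold with a 95% interval of 0.08 to 0.60 on the log2 scale. The unadjusted p was 0.0227 and the adjusted p 1.00 in limma, and with median centring of the arrays in place of loess the unadjusted p was 0.19. With median centring, limma used in effect a single spread for all probes, with 19300 total degrees of freedom against 3.49. No p with median centring given here thus reflects a probe's own spread between the arrays. All 3 means lay above 0, at 0.23 to 0.34, but the means of col9a1b and col9a2 were smaller than their spread between the arrays. Some probes were tied to type IX collagen only by their array description. The one likened to the alpha 3 chain was split, at -0.12 and 0.15, with a mean of 0.015 ± 0.19 (SD, n = 2). Another, likened to a type IX procollagen, was split at -0.15 and 0.18. A brighter probe, described as the alpha 2 chain, was split widely at 1.05 and -0.57, with a mean of 0.24 ± 1.15 (SD, n = 2).

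Type XVIII collagen belongs to the basement membrane zone and carries the endostatin domain at its end. Its gene col18a1a, called col18a1 on the array, had signals of 609.3 and 425.2 in mutant RNA at probe a, against 565.9 and 318.2 in wild-type RNA. Mutant signal was higher on both arrays, with log2 ratios of 0.11 and 0.42 and a mean of 0.26 ± 0.22 (SD, n = 2). The unadjusted p was 0.099 in limma. Probe b, added by an updated name, gave -0.14 and 0.04 with a mean of -0.05 ± 0.12 (SD, n = 2), so the 2 probes of this gene differed by 0.31. That was the largest gap between probes of any gene among the 33. The related basement membrane zone gene col15a1b, also added, was at -0.18 and -0.005.

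The other collagen genes came in through updated names. Both probes of col28a2a, a type XXVIII chain gene, were higher in mutants on array 1 and lower on array 2, with ratios of 0.65 and -0.11 at probe a and 0.46 and -0.10 at probe b. The fibril-forming col11a1a was level, at 0.0003 and 0.03, with signals of 304 and 233.3 in mutant RNA and 303.9 and 228.9 in wild-type RNA. The hypertrophic cartilage collagen gene col10a1a was dim and had ratios of -0.07 and 0.14. Its signals were 76.3 and 79.5 in mutant RNA and 80.2 and 72.4 in wild-type RNA, the last being the lowest of the 33 probes. In all, 14 collagen probes for 11 genes had a median log2 ratio of 0.11, with 4 higher in mutants on both arrays, 1 lower on both and 9 split. No probe matched by name to the notochord-sheath gene col2a1a or to the type IV genes of basement membranes, which are not analysed here by name. A probe likened to human alpha-5 type IV collagen only by its array description was split, at 0.20 and -0.14.

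**Figure D2:**
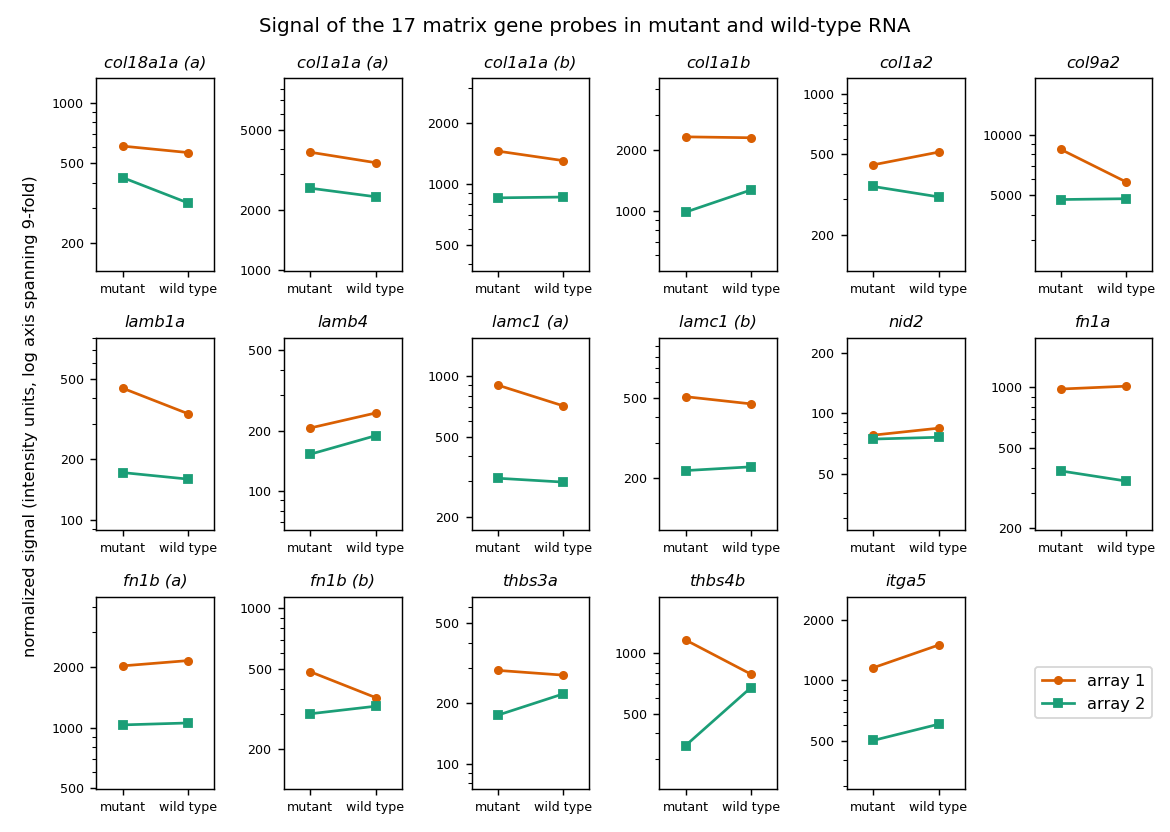
Normalized signal (y axis, intensity units on a log axis of equal span in each panel) of the 17 matrix gene probes in mutant and wild-type RNA (x axis). Circles joined by a line are array 1 and squares array 2, with no error bars since each point is a single channel. Lines slope the same way for lamb4 and itga5, where mutant signals are below wild-type signals on both arrays, and slope opposite ways for thbs4b.

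Laminin chain genes had mean ratios on both sides of 0, and no difference between them was tested. The beta 1 chain gene lamb1a, called lamb1 on the array, and the gamma 1 chain gene lamc1 encode subunits of the same trimers, and zebrafish that lack either chain fail to form a mature notochord. Signals of lamb1a were 450.1 and 171.4 in mutant RNA, against 336.2 and 159.1 in wild-type RNA. Mutants were higher on both arrays, with log2 ratios of 0.42 and 0.11 and a mean of 0.26 ± 0.22 (SD, n = 2), and the unadjusted p was 0.0985 in limma. For lamc1, probe a read 901.2 and 310.8 in mutant RNA against 711.3 and 297.4 in wild-type RNA. Here too mutants were higher on both arrays, with a mean of 0.20 ± 0.20 (SD, n = 2) that was about the size of its spread. Probe b of lamc1 was split, at 0.12 and -0.06.

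The laminin beta chain gene lamb4 lay on the other side. Its signals were 205.9 and 152.5 in mutant RNA, against 244.3 and 188.5 in wild-type RNA. Mutant signal was below wild-type signal on each array by a similar margin, with log2 ratios of -0.25 and -0.31. The mean was -0.28 ± 0.04 (SD, n = 2), or 0.825 of the wild-type signal, with a 95% interval of -0.52 to -0.03. In limma the unadjusted p was 0.0369 and the adjusted p 1.00, and the unadjusted p was 0.287 with median centring and 0.0743 when the arrays were scaled alike. Nidogen 2, which links laminin to type IV collagen, was dim. Its gene nid2 had signals of 77.8 and 74.4 in mutant RNA and 84.2 and 75.9 in wild-type RNA, and was well above background in mutant RNA on 1 array of 2. The mean log2 ratio of nid2 was -0.07 ± 0.06 (SD, n = 2). It was -0.20 with no normexp offset and -0.42 with Agilent's processed signals, where the unadjusted p was 0.0416 and the adjusted p 1.00 in limma. The size of this ratio thus varied with the processing.

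Fibronectin and its main receptor were measured together. Zebrafish have 2 fibronectin genes, fn1a (fn1 on the array) and fn1b (fn1l on the array), and fibronectin is assembled into fibrils mainly through the integrin of alpha 5 and beta 1 chains. Signals of fn1a were 982.7 and 385 in mutant RNA, against 1015 and 343 in wild-type RNA. The ratios of -0.05 and 0.17 had opposite signs, with a mean of 0.06 ± 0.15 (SD, n = 2). Probe a of fn1b was nearly level on both arrays, with signals of 2031 and 1034 in mutant RNA against 2157 and 1057 in wild-type RNA, and a mean of -0.06 ± 0.04 (SD, n = 2). Probe b of fn1b was split, at 0.43 and -0.12.

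The receptor gene itga5, encoding the alpha 5 chain that zebrafish need to form the borders of anterior somites, had the lowest mean ratio of the 33 probes. Its signals were 1155 and 502.9 in mutant RNA, against 1497 and 605.5 in wild-type RNA. Mutant signal was below wild-type signal on both arrays, with log2 ratios of -0.37 and -0.27 and a mean of -0.32 ± 0.08 (SD, n = 2). That is 0.80 of the wild-type signal, with a 95% interval of -0.58 to -0.06 on the log2 scale. The unadjusted p was 0.027 and the adjusted p 1.00 in limma. The unadjusted p of itga5 was 0.0579 with Agilent's processed signals and 0.319 with median centring. Both lower probes among the 17, itga5 and lamb4, stand beside a background of 1.24% of all probes at this unadjusted threshold, and neither passed the adjustment over all probes.

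Of the other integrin genes, all added by updated names, none had an unadjusted p under 0.05. Both probes of itga9, whose product binds tenascin and other glycoproteins, were higher in mutants on array 1 and lower on array 2. The signals of probe a were 374 and 228.5 in mutant RNA against 253.9 and 245.5 in wild-type RNA. Ratios were 0.56 and -0.10 at this probe and 0.92 and -0.14 at probe b, so a difference was seen on array 1 alone. The thrombocyte integrin gene itga2b had a mean log2 ratio of 0.11 ± 0.11 (SD, n = 2). The beta chain genes itgb1b.2 and itgb4, the second a hemidesmosome component of epidermis, had means of 0.09 ± 0.19 and 0.06 ± 0.002 (SD, n = 2 each).

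Thrombospondins are multimeric glycoproteins of the matrix, and thrombospondin 4 is laid down where muscle meets tendon. The gene thbs4b, called thbs4 on the array, gave the plainest disagreement between the arrays. Its signals were 1165 and 348.2 in mutant RNA, against 788.3 and 675.5 in wild-type RNA. Mutant signal was above wild-type signal on array 1 and below it on array 2. The log2 ratios of 0.56 and -0.96 average to -0.20 ± 1.07 (SD, n = 2), a mean with a 95% interval of -1.42 to 1.03. In the authors' deposited scanner files, the software's error model gave thbs4b a single-array p of 0.000615 on array 1 and 4.03e-09 on array 2, in opposite directions. It was the only 1 of the 33 probes below a single-array p of 0.01 on both arrays, and no probe of the 33 was below it on both in a shared direction. Over all probes, 289 were below it on both in opposite directions, 98 were higher on both and 35 lower on both. The second thrombospondin gene, thbs3a (thbs3 on the array), was also split, at 0.08 and -0.35, with signals of 291.1 and 174.5 in mutant RNA and 275.7 and 222.5 in wild-type RNA.

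Lysyl hydroxylases modify collagen chains in the endoplasmic reticulum before the triple helix closes, and all 3 genes entered through updated names. For plod3 the signals were 1412 and 357.7 in mutant RNA, against 1164 and 304.7 in wild-type RNA. Mutants were higher on both arrays by a like amount, with log2 ratios of 0.28 and 0.23 and a mean of 0.25 ± 0.03 (SD, n = 2), or 1.19-fold. The unadjusted p was 0.0454 and the adjusted p 1.00 in limma, and the unadjusted p was 0.0983 with Agilent's processed signals and 0.249 with median centring. The gene plod2 was also higher on both arrays, by 0.18 and 0.11, with an unadjusted p of 0.168 in limma. Its mean of 0.15 became -0.0066 with median centring. The gene plod1a was at 0.07 and -0.07 and thus without a shared direction.

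With the added names, 10 of the 33 probes were higher in mutants on both arrays, 5 were lower on both and 18 were split. Over all tested probes, 21.4% were higher on both arrays and 20.0% were lower on both. The 33 probes had a median log2 ratio of 0.07, being 0.12 on array 1 and -0.01 on array 2. At an unadjusted p under 0.05 in limma, 2 of the 33 were higher (col9a3 and plod3) and 2 were lower (itga5 and lamb4). Over all tested probes, the shares at this threshold were 2.03% higher and 1.24% lower. Mean ratios exceeded their own SD between the arrays in 12 of the 33. The same share was not counted over all probes, so no difference is read from this number.

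**Figure D3:**
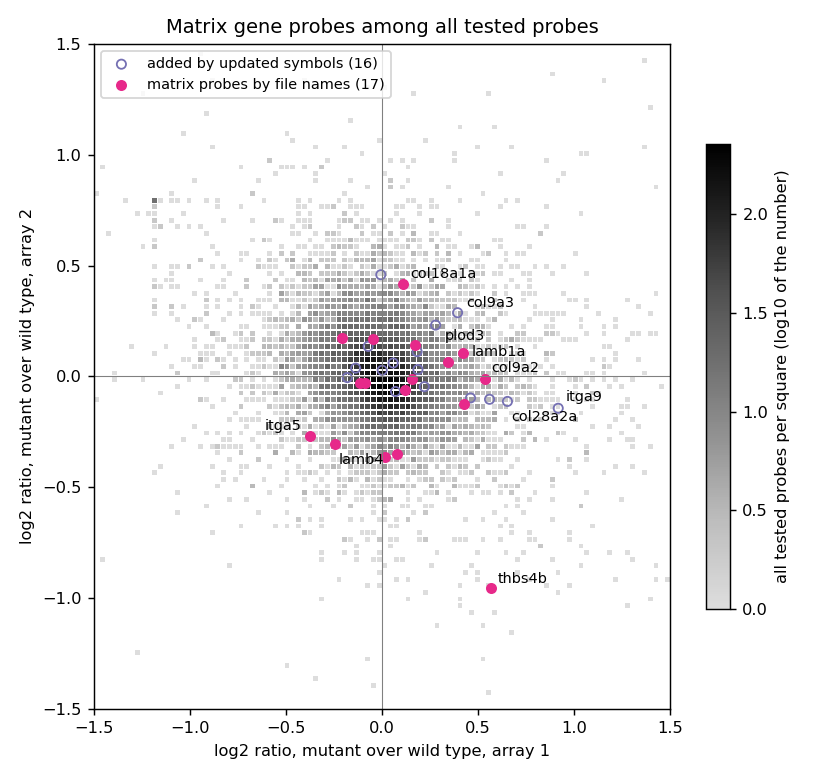
Log2 ratio of mutant over wild type on array 1 (x axis) and array 2 (y axis). Grey squares give the number of tested probes per square on a log10 scale, filled circles the 17 matrix probes by the names on the array and open circles the 16 added by updated names. The range drawn leaves out 70 tested probes, none of them a matrix probe. Most matrix probes lie within the grey cloud, and itga5 and lamb4 lie low on both arrays. At the lower right, thbs4b lies apart from the other matrix probes, in a region that holds other tested probes too.

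Split members leaned towards array 1. Of the 9 split probes among the 17, 7 were higher in mutants on array 1 and lower on array 2, which is higher in the red channel whichever RNA it held, and 2 were the other way round. As shares of the 17 these are 41.2% and 11.8%. Over all tested probes, 31.1% were split with the red channel higher and 27.5% with the green channel higher. The SD across all probes was 0.162 for the mean mutant over wild-type ratio and 0.188 for red over green, and among the 17 matrix probes these were 0.19 and 0.222. A dye effect and a difference between replicates cannot be told apart with 2 arrays.

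Genes that help to build collagen fibrils showed no call. This list holds chaperones, prolyl hydroxylases, crosslinking enzymes and small proteoglycans, and 20 of its probes, for 14 genes, were tested. Of these, 3 were higher in mutants on both arrays, 5 were lower on both and 12 were split, with 0 at an unadjusted p under 0.05 in limma in either direction. The median log2 ratio was -0.003. For comparison here and in the lists that follow, 21.4% of all tested probes were higher on both arrays and 20.0% were lower on both. At an unadjusted p under 0.05 in limma, 2.03% of all tested probes were higher and 1.24% were lower. In the fibril list, the lowest mean with a shared direction belonged to tgfbi, a collagen-binding matrix protein gene, at -0.36 ± 0.30 (SD, n = 2). Of the 4 probes of serpinh1b, the collagen chaperone HSP47, 2 were lower on both arrays, at -0.25 ± 0.35 and -0.22 ± 0.10 (SD, n = 2 each). The other two were split, with means of -0.20 and -0.19. The small proteoglycan gene bgnb was at -0.12 ± 0.01 and -0.11 ± 0.05 (SD, n = 2 each) at its 2 probes. On the other side, crtap, a partner of prolyl 3-hydroxylase, was at 0.23 ± 0.10 (SD, n = 2).

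The coat and tethering genes that carry procollagen out of the endoplasmic reticulum and through the Golgi were level, with a median of -0.007 over 18 probes for 14 genes. Of these, 4 were higher on both arrays, 3 were lower on both and 11 were split, and none had an unadjusted p under 0.05 in limma. The coatomer genes cope and arcn1b had means of 0.21 ± 0.29 and 0.14 ± 0.16 (SD, n = 2 each), and klhl12, which helps to enlarge the carriers that hold procollagen, had -0.08 ± 0.09 (SD, n = 2).

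Other basement membrane and glycoprotein genes numbered 33 probes for 26 genes, with a median of 0.01. Of these, 11 were higher on both arrays, 8 were lower on both and 14 were split, again with none at an unadjusted p under 0.05 in limma. The matrilin gene matn4 was at 0.24 ± 0.09 and the spondin gene spon1b at 0.21 ± 0.01, while egfl6 was at -0.22 ± 0.17, the microfibril gene mfap2 at -0.18 ± 0.09 and the tenascin gene tncb at -0.12 ± 0.05 (SD, n = 2 each).

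On the inner side of the membrane, the genes for proteins that join integrins to actin gave a median of 0.01 over 14 probes for 9 genes. The arrays differed, the median being -0.01 on array 1 and 0.21 on array 2. There were 3 probes higher on both, 2 lower on both and 9 split. The kinase gene ilk, with a single probe, had a mean of 0.34 ± 0.40 (SD, n = 2). The kinase gene src had 1 probe higher on both arrays, at 0.19 ± 0.19 (SD, n = 2), and a split probe at -0.05. Of the 3 probes of ptk2ab, which encodes focal adhesion kinase, 1 was higher on both arrays, at 0.15 ± 0.18 (SD, n = 2), and the others were split, at 0.02 and 0.0017. As in the lists before it, no gene of this list had an unadjusted p under 0.05 in limma.

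**Figure D4:**
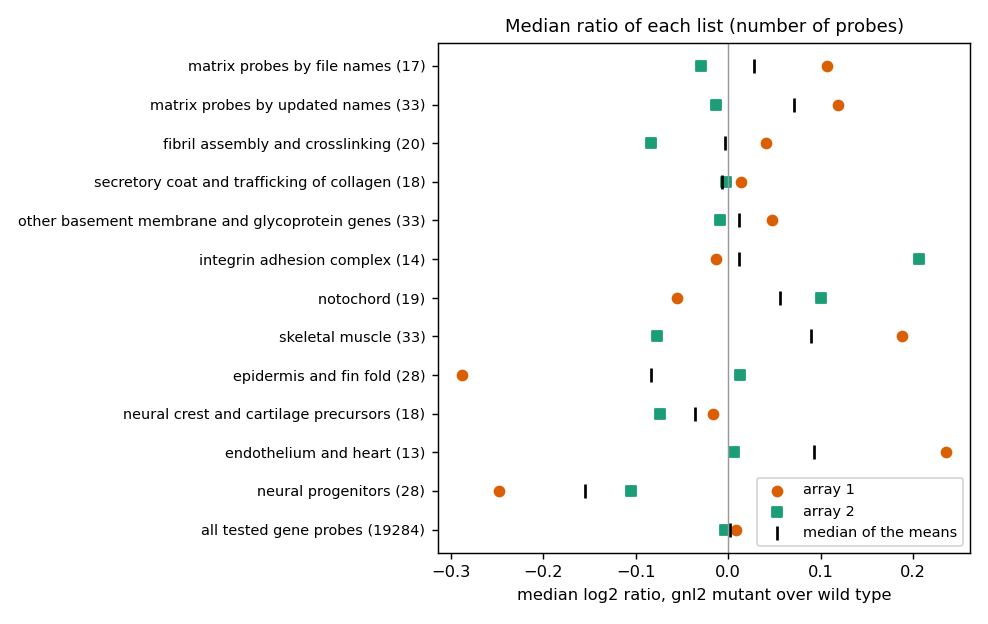
Median log2 ratio of mutant over wild type (x axis) for the matrix probes, the related gene lists, the cell type marker lists and all tested probes (y axis, number of probes in brackets). Circles are array 1, squares array 2 and bars the median of the mean ratios, with no error bars. The matrix probes lie above 0 on array 1 and just below 0 on array 2, and the neural progenitor list lies below 0 on both arrays. The epidermal list includes 6 saturated probes.

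Matrix genes are made by particular tissues of the embryo, so markers of those tissues were read beside them. Notochord markers, 19 probes for 14 genes, had 4 probes higher on both arrays, 2 lower on both and 13 split. The median log2 ratio was 0.06, being -0.06 on array 1 and 0.10 on array 2. Probes of tbxta and noto were higher on both arrays, at 0.10 ± 0.08 and 0.08 ± 0.02 (SD, n = 2 each). That of mab21l1 was lower on both, at -0.17 ± 0.04 (SD, n = 2). Summed signal of the notochord markers was 24232 and 17325 in mutant RNA against 27980 and 14063 in wild-type RNA. The arrays thus disagreed in direction. One listed gene, sox9a, which also acts in cartilage, had a mean of -0.33 ± 0.11 (SD, n = 2) with an unadjusted p of 0.0304 in limma.

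Skeletal muscle markers had 9 of 33 probes higher on both arrays, 4 lower and 20 split, with a median of 0.09. At an unadjusted p under 0.05 in limma, 4 were higher and 2 lower, beside 2.03% and 1.24% of all tested probes. Among probes higher on both arrays, those of desma and acta1b had the largest means, with a wide spread. They were at 0.53 ± 0.45 and 0.47 ± 0.38 (SD, n = 2 each). The myogenic factor gene myod1 was at 0.44 ± 0.05 and the muscle actin gene actc1b at 0.45 ± 0.01 (SD, n = 2 each), each at 1 of 2 probes, with the other probe split at 0.09 for myod1 and 0.11 for actc1b. Both probes of the fast myosin gene myhz2 were lower, at -0.34 ± 0.01 and -0.33 ± 0.03 (SD, n = 2 each). Summed signals were 158169 and 97880 in mutant RNA against 119784 and 97018 in wild-type RNA. Muscle genes thus went both ways, and their summed signal differed mainly on array 1.

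Epidermal and fin fold markers had 1 of 28 probes higher on both arrays, 11 lower and 16 split, with a median of -0.08 and 5 lower calls at an unadjusted p under 0.05 in limma. Over all tested probes, 20.0% were lower on both arrays and 1.24% were called lower at this threshold. However, 6 of the 28 epidermal and fin fold probes, for cyt1, krt4, krt5 and krt8, were saturated in mutant RNA on 1 array, so their ratios are not exact and none is given. Those for krt4 and krt5 were also saturated in wild-type RNA, on 1 or both arrays. The 6 saturated probes include 2 of the 5 lower calls, both for krt8. Among the 22 unsaturated probes, a split made after the data were seen, both arrays agreed on lower signal in mutants for 7 and on higher signal for 1, while 14 were split, and lower calls numbered 3. Their median was -0.06, being -0.17 on array 1 and 0.04 on array 2, and their summed signals were 51526 and 22873 in mutant RNA against 64102 and 21199 in wild-type RNA. The arrays thus disagreed in direction. The epidermal gene icn had a mean of -0.52 ± 0.03 (SD, n = 2). The keratin gene krt91 was lower on both arrays at 2 of its 3 probes, at -0.39 ± 0.21 and -0.27 ± 0.03 (SD, n = 2 each).

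Neural progenitor markers were lower on both arrays at 18 of 28 probes, higher at 4 and split at 6, with 7 lower calls at an unadjusted p under 0.05 in limma and a median of -0.15. Over all tested probes, 20.0% were lower on both arrays and 21.4% higher, with 1.24% and 2.03% called lower and higher at this threshold. Summed signal of the neural progenitor markers was 59464 and 37547 in mutant RNA against 73482 and 44752 in wild-type RNA, lower in mutants on both arrays. The 3 probes of fabp7a, a radial glial lipid-binding gene, had means between -0.82 and -0.75. Of the 4 probes of the glial filament gene gfap, 3 were lower on both arrays, at -0.25 to -0.18, and a dim probe was higher on both, at 0.58 ± 0.60 (SD, n = 2). Endothelial and heart markers had 6 of 13 probes higher on both arrays, 0 lower and 7 split, with a median of 0.09. That median was 0.24 on array 1 and 0.007 on array 2. Summed signals of these markers were 9008 and 4140 in mutant RNA against 7272 and 4339 in wild-type RNA. The arrays thus disagreed in direction. The only probe of this list with an unadjusted p under 0.05 in limma was that of clec14a, at 0.35 ± 0.04 (SD, n = 2). Neural crest and cartilage precursor markers had a median of -0.04 over 18 probes and no unadjusted p under 0.05 in limma. Of these probes, 3 were higher on both arrays, 6 were lower on both and 9 were split. The 3 probes of mitfa were lower on both arrays at -0.15 to -0.13. Both probes of foxd3 were higher on both arrays, at 0.16 ± 0.05 and 0.20 ± 0.12 (SD, n = 2 each). Of the 3 probes of prdm1a, 1 was higher on both arrays, at 0.24 ± 0.01 (SD, n = 2), and the others were split, at -0.04 and 0.02. The part of any of these tissues in the matrix gene values was not tested.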

How the data were processed

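Each sample is an array with gnl2 mutant RNA in a first dye and wild-type RNA in a second, and the 2 arrays were taken as 2 replicates with the dyes swapped. The spot intensity values deposited by the authors are, per the file headers, the mean over a spot's pixels and the median of its local background, as read by Agilent Feature Extraction. Per the file headers, the software's own processed signals were dye-normalized with LOWESS smoothing of 0.25. The deposited log10 ratio column is red (Cy5) over green (Cy3). The deposited p-value column comes from the software's error model of a single array. A value table of the series also holds log10 red over green. It differed from the scanner files by at most 0.00498 and 0.00499 on arrays 1 and 2, its column medians were 0 on both, and its sign is not turned for the dye swap.

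Signals were corrected with normexp (offset 50) and loess (span 0.3) was fitted array by array, giving weight 0 to controls and outlier spots. The tools were R 4.3.3 and limma 3.58.1. The ratio of array 2 was turned, so all ratios are mutant over wild type. Of 22575 spots, 1080 were controls. Outlier flags removed 749 gene probes, and a probe had to be well above background on both arrays in mutant or in wild-type RNA, which removed 1462. The tests were lmFit and eBayes, 2-sided, with Benjamini-Hochberg adjustment over 19284 probes. Residual degrees of freedom numbered 1 per probe, or 3.49 with the spread pooled over probes. The number of arrays limits the precision.

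Names followed a reference table of assembly GRCz12tu. An accession named 7323 of 21495 gene probes, a current symbol 615 and a synonym 2360, while 11197 stayed under the name on the array. Probes of a gene were tested separately. The genes named are, per family, those of a shared direction with the largest means and those with an unadjusted p under 0.05. Members split by more than 0.5 on each array and a fixed set of well-known members are also named. Per list, up to 3 genes a direction are named, and myod1 besides. The members and lists were chosen with earlier results of these data known, and no list was tested as a set. The scripts were tested on simulated data. Alternatives covered background, normalization, scaling, filters, the source of values, probe averaging, names, the single-array error model and leaving out an array.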

Additional observations from a re-analysis of the deposited data

How the results depend on the processing

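No matrix probe passed adjustment in limma under any alternative that gave a test, and every such adjusted p was 1.00. The test rests on 2 arrays. Mutant and wild-type RNA shared each array, so the ratios tested are already paired within arrays. Both arrays form a single group of ratios, with no further pairing. Over all probes, 38 passed with median centring in place of loess and 133 passed a single-array p of 0.01 on both arrays in a shared direction by Agilent's error model, against 0 in the main test. With median centring, limma used in effect a single spread for all probes (19300 total degrees of freedom against 3.49). Its calls and p-values, that of gnl2 included, are therefore not like for like with the main test. The number of the 17 matrix probes at an unadjusted p under 0.05, which was 2, became 0 with median centring and 1 with arrays scaled alike. By Agilent's error model, 0 of the 17 passed a single-array p of 0.01 on both arrays in a shared direction. At an unadjusted p under 0.05 there were 4 among the 33 probes by updated names, and 6 once the 23 probes tied by description were added to those, an alternative chosen after seeing the data. With Agilent's processed signals the number stayed at 2 but nid2 took the place of itga5. Probes higher on both arrays numbered 10 with updated names and 16 with the described probes, against 4. Probes lower on both numbered 2 with median centring and 9 with the described probes, against 4. The added members themselves raise these counts. The median over the 17 probes ranged from -0.03 to 0.11 when an array was left out. Of 280 single-gene values under the alternatives that kept both arrays, 271 kept their direction and side of the threshold. This number overstates the stability. The alternatives on dim probes, outlier flags and saturated probes changed only which probes were tested, so no mean could turn there. The deposited table nearly repeats Agilent's processed ratios, with nid2 at -0.417 and -0.416. The 8 that turned belong to 5 probes whose means in the main analysis lay between -0.02 (col1a2) and 0.15 (plod2). They are plod1a (-0.0188 with Agilent's processed signals and with the deposited table, -0.15 with median centring, -0.0334 with arrays scaled alike), plod2 (-0.0066 with median centring), col10a1a (-0.17 with median centring), col1a2 (0.0731 with arrays scaled alike) and probe b of lamc1 (-0.0128 with arrays scaled alike). The mean of thbs4b was -0.60 with arrays scaled alike. The remaining value is gnl2, at -1.58 with an adjusted p of 1.16e-05 in limma with median centring. With 1 array left out, which gives no test, 18 of the 35 single-gene means changed sign. These are the 18 split probes again, since with 2 arrays only a split probe can change sign. Among them was thbs4b, at 0.56 without array 2 and -0.96 without array 1. Except where the membership changes, the cause was not tested.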

Other observations

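A further 23 probes carry no symbol of these families, but their array descriptions liken them to a member. This rule was added after the data were seen. Their median log2 ratio was 0.02, with 6 higher in mutants on both arrays, 4 lower on both and 13 split, and 2 had an unadjusted p under 0.05 in limma, both higher. Over all tested probes, the shares were 21.4% higher on both arrays, 20.0% lower on both and 2.03% called higher. A probe described as a collagen XVIII fragment had signals of 7484 and 3362 in mutant RNA, against 6017 and 2399 in wild-type RNA, and a mean of 0.40 ± 0.12 (SD, n = 2). The same collagen type gave 0.26 and -0.05 at the 2 probes named col18a1a, so 2 of 3 probes lay above 0 on both arrays. A probe described as like human lysyl hydroxylase had signals of 6135 and 4096 in mutant RNA against 4563 and 3379 in wild-type RNA, with a mean of 0.35 ± 0.11 (SD, n = 2). Its description does not say which lysyl hydroxylase gene it matches. Of the named genes, plod2 and plod3 were higher on both arrays and plod1a was split. Unadjusted p-values in limma were 0.0177 for the collagen XVIII probe and 0.0238 for the lysyl hydroxylase probe, and both adjusted values were 1.00.

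Large disagreements between the arrays occurred among the described probes too. A probe described as type IX collagen alpha 2 was at 1.05 on array 1 and -0.57 on array 2, one described as nidogen 1 at 0.72 and -0.81, and one described as a beta 1 integrin at -1.25 and 0.58. A second col1a2 probe by description was at 0.28 and 0.11, where the named col1a2 probe was at -0.21 and 0.17. A further lamc1 probe by description was at 0.29 and 0.007, near probe a of lamc1 on array 1.

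The match set apart, eif6, had signals of 9451 and 3748 in mutant RNA against 7462 and 3587 in wild-type RNA. Its log2 ratios were 0.34 and 0.06, with a mean of 0.20 ± 0.20 (SD, n = 2) and an unadjusted p of 0.154 in limma.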
